A study of Homo sapiens with 4 samples.

Results

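HOX genes encode homeodomain transcription factors that stand in 4 clusters, HOXA to HOXD. The 38 HOX genes examined here were chosen by name, and each probe set annotated to 1 of them and to no other gene was taken. Of the 38, 28 could be read, from 44 probe sets, out of 19775 genes and 54675 probe sets on the arrays. RNA from 4 modified lines of human colorectal cancer cells was measured on 1 Affymetrix array each. HCT116 comes from a colorectal carcinoma and gave the arrays titled HCT116-Vec and HCT116-CDX1. LS174T comes from a mucin-producing colon adenocarcinoma and gave those titled LS174T-siVec and LS174T-siCDX1. From the titles, CDX1 was taken to be added in HCT116-CDX1 and lowered in LS174T-siCDX1, each against a vector control of its line. The CDX1 protein is a homeodomain regulator found in gut epithelium. The labels used here gave no construct, clone number, passage or time.

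Genes within a HOX cluster are numbered along the chromosome, and the same number in different clusters marks a paralogue group. In the embryo the low-numbered genes act toward the head and the high-numbered genes toward the tail, and adult gut epithelium keeps part of that pattern. HOX proteins bind DNA with partners of the TALE class, the PBX, MEIS and PKNOX proteins. CDX proteins, which come from the sister ParaHox cluster, are known regulators of HOX genes in the embryo and bind sites with a TTTAT core.

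Values were RMA expression levels on the log2 scale. A gene with several probe sets was read from the one with the highest mean over the 4 arrays. A gene counted as measured if its brightest array, or the brighter of 2 arrays compared, reached 6. "Rose" and "fell" are used of measured genes at least 2-fold apart, a difference of 1 on the log2 scale. Each group has 1 array, so differences within a pair carry no replicate error, and the small number of arrays limits precision. Fewer cells that express a gene and less RNA per cell cannot be told apart in such samples.

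Array medians were 7.04 to 7.06. CDX1 stood at 8.21 in HCT116-Vec, 8.24 on the array labelled HCT116-CDX1, 10.46 in LS174T-siVec and 9.06 in LS174T-siCDX1. The probe set thus showed no rise of CDX1 in HCT116, and directions in that pair rest on the label. KRT20, the cytokeratin gene that the series set out to examine, stood at 6.36, 9.38, 8.15 and 5.45 in the same order. The epithelial marker EPCAM was at 12.82 to 13.24 on all 4 arrays. Of 20 markers of fibroblasts, endothelium, leukocytes and neural cells that were read, not all measured, 0 rose or fell within either pair. Of all measured genes 0.916% rose and 0.97% fell in the HCT116 pair. In the LS174T pair 0.598% rose and 1.25% fell, so a count of 0 in a short list says little. Between the vector arrays 1 of the 20 differed at least 2-fold, LYZ, a lysozyme gene of leukocytes and Paneth cells. It stood at 4.97 in HCT116-Vec and 11.25 in LS174T-siVec. In these epithelial lines the T cell gene CD3E read 7.76 to 8.07, the endothelial gene TEK 8.36 to 8.58 and the fibroblast gene COL1A1 8.86 to 9.14. Some other markers of such cells stayed under 6. A level of 6 or more, or of 7 or 8, thus does not by itself show that a gene is expressed. Of 12 colorectal epithelium markers, 2 rose in the HCT116 pair and 4 fell in the LS174T pair, and between the vector arrays 6 were at least 2-fold higher and 1 lower in LS174T-siVec. Their median level was 8.72, 9.06, 11.88 and 10.63 in the order above. The part of these differences in the HOX results was not tested.

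Promoter windows could be shown for some members, from RefSeq sequences of GRCh38.p14 that run from 250 bases before to 50 after the start of the gene. They were found for 20 of the 38 members, of which 11 were read on the arrays. Of the HOXB genes only HOXB1 had a window. HOXB5, HOXB6, HOXB7, HOXB8 and HOXB9, which rose in a pair as given below, had none and were not searched. Among those 11, the letters TTTATNG, which extend the CDX core, were found on either strand in 3: HOXD8, HOXC4 and HOXC5, the last 2 with 1 shared window. Counted by gene, TTTATNG was found in 5 of the 20, TTTATTG in 2 and TTTAT in 10, and over 27305 promoters of this length in 10.1%, 4.12% and 35.8%. The shared window of HOXC4 and HOXC5 enters each of these member counts for both genes, and the 2 with TTTATTG are these genes. The longer motifs contain the shorter ones. HOXD8 is shown as a gene that differed between the lines, HOXC4 as one that did not reach 2-fold in any comparison, and HOXA11-AS, an antisense RNA of the HOXA cluster, as a transcript that differed the other way. The windows are chr2:176129455-176129754 for HOXD8, chr12:54016638-54016937 for HOXC4 and chr7:27185158-27185457 for HOXA11-AS, all on the plus strand, written 5′ to 3′ with TTTATNG in capitals. The match in HOXD8 starts at position -92 from the start of the gene, and HOXA11-AS holds no TTTAT in this window. A match describes letters and shows no binding.
HOXD8: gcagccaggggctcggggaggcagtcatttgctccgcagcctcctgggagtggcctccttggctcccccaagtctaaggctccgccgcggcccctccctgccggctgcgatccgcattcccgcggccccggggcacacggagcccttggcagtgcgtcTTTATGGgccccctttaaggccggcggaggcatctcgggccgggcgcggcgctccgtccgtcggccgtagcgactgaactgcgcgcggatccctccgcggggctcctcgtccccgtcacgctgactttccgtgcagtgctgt
HOXC4: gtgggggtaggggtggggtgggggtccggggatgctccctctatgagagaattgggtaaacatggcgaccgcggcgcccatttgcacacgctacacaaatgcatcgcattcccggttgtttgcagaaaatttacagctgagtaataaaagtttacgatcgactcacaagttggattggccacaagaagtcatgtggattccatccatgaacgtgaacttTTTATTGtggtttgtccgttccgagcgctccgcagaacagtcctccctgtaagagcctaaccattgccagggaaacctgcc
HOXA11-AS: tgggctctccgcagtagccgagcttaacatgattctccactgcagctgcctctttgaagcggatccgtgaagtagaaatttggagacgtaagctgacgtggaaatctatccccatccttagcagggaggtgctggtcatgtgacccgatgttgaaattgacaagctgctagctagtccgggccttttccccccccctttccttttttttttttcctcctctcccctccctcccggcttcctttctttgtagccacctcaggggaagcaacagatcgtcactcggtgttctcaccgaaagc

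Measured HOX genes came from all 4 clusters, but HOXA was represented by 1 gene. Of the 28 genes read, 26 were measured: 1 of HOXA, 10 of 10 HOXB, 8 of 9 HOXC and 7 of 8 HOXD. The brightest array was at 7 or more for 22 genes and at 8 or more for 10, of which 7 were HOXB, 3 HOXC and 0 HOXD genes. HOXC12, brightest at 5.55, and HOXD12, at 5.48, lay under the floor, and HOXA2, at 6.49, was the dimmest gene above it. HOXA3, HOXA4, HOXA5, HOXA6, HOXA7, HOXA9, HOXA10, HOXA11 and HOXA13 had no probe set named in the annotation used and were not analysed here. HOXD3 was annotated only on probe sets shared with HOXD4, so it was not read either. By place along the clusters, 8 of 8 genes read of paralogue groups 1 to 4, 8 of 8 of groups 5 to 8 and 10 of 12 of groups 9 to 13 were measured.

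**Figure D1:**
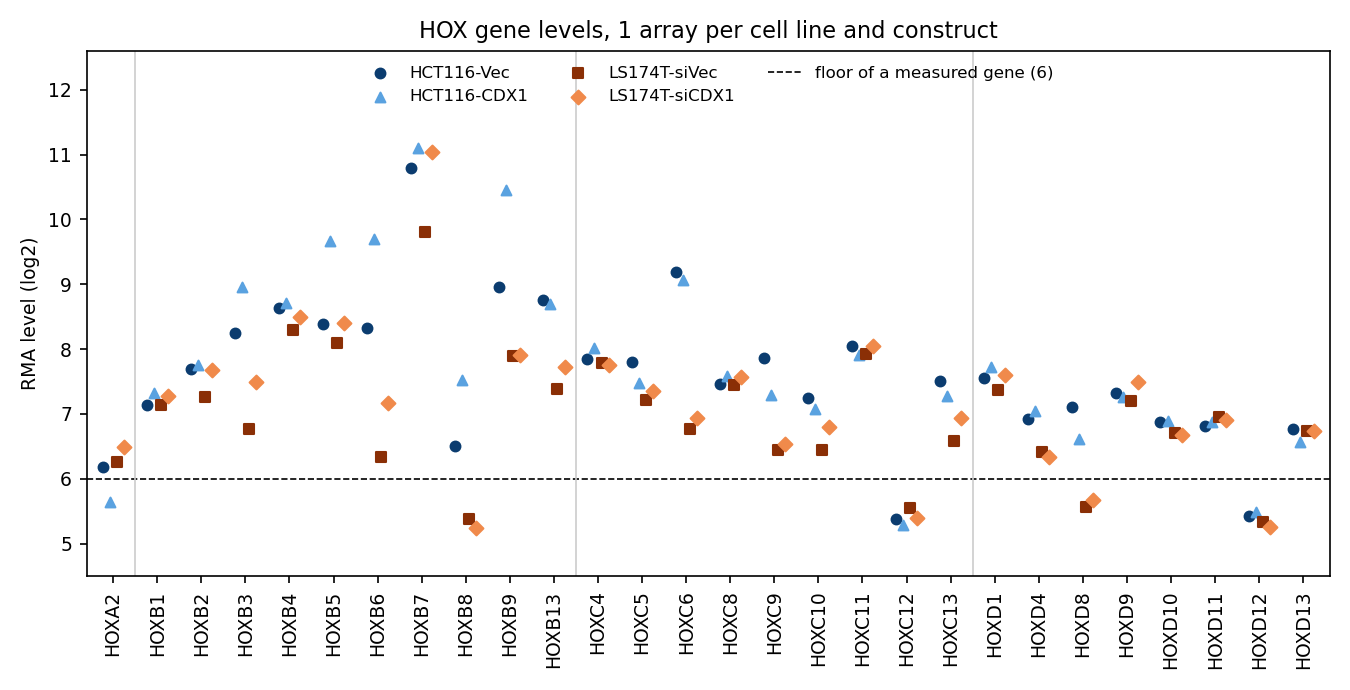
RMA levels (log2, vertical axis) of the 28 HOX genes read, in cluster order from HOXA2 to HOXD13, with 1 symbol for each of the 4 arrays and a dashed line at the floor of 6. HOXB3, HOXB5, HOXB6, HOXB8, HOXB9, HOXC6, HOXC9 and HOXD8 spread widely between arrays, while HOXC8, HOXC11 and HOXD11 read nearly the same on all 4.

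Members of the central HOXB cluster rose on the array labelled HCT116-CDX1. They were HOXB5, HOXB6, HOXB8 and HOXB9, whose products pattern the trunk of the embryo, and the 22 other measured HOX genes differed by less than 2-fold. In all, 4 of 26 rose and 0 fell, where 0.916% of 16914 measured genes rose and 0.97% fell. The median difference of the 26 was 0.06, against -0.01 for all genes, and the 4 rises lay in 1 cluster.

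HOXB9 went from 8.95 in HCT116-Vec to 10.46 in its labelled CDX1 counterpart. This rise of 1.51, or 2.86-fold, was the highest among the HOX genes and rank 52 of the 16914 genes. The LS174T arrays read 7.89 and 7.91, below both HCT116 arrays. HOXB6 stood at 8.32 and 9.70, a rise of 1.38 or 2.61-fold, at rank 64. HOXB5 stood at 8.39 and 9.67, a rise of 1.28 or 2.42-fold, at rank 81. Both genes thus read higher on the array labelled HCT116-CDX1 than on any other array. HOXB8 rose from 6.51 to 7.53, by 1.02 or 2.02-fold, at rank 149. It was the member closest to the threshold and was not called under 3 other scalings of the arrays or when its probe sets were averaged, which gave 0.63.

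HOXB7, which lies between HOXB6 and HOXB8, did not follow them. It stood at 10.79 and 11.10, a difference of 0.31, and its 2 other probe sets differed by 0.18 and 0.08. At the low-numbered end of the cluster HOXB3 was at 8.25 and 8.96, a difference of 0.71 that stayed under 2-fold. HOXB1 differed by 0.19, HOXB2 by 0.06, HOXB4 by 0.08 and HOXB13, at the far end, by -0.06. The 4 genes that rose thus all lay between HOXB5 and HOXB9, with HOXB7 as the exception in that stretch.

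The second probe sets of HOXB5, HOXB6 and HOXB9 also read higher on the array labelled HCT116-CDX1, by 0.92, 1.43 and 1.45. That of HOXB8 differed by 0.25 at levels of 5.45 and 5.70, under the floor. Some probe sets carry a suffix, _s_at or _x_at, for a sequence that is not unique to 1 transcript. The second probe sets of HOXB5 and HOXB9 carry _x_at, and that of HOXB6 carries neither. Leaving out all probe sets with either suffix leaves HOXB5 unread and HOXB8 to its dim probe set. It gave 2 HOX genes that rose, HOXB6 and HOXB9.

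The other clusters showed smaller differences in the HCT116 pair. The 8 measured HOXC genes ranged from -0.57 to 0.17 with a median of -0.15, and the 7 HOXD genes from -0.48 to 0.17. HOXC9 had the lowest difference, with levels of 7.86 and 7.29. HOXA2, a gene of hindbrain patterning, went from 6.18 to 5.64, the latter under the floor. HOXD8 stood at 7.10 and 6.62. None of these reached 2-fold.

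HOXB7 was the HOX gene that rose in LS174T-siCDX1. It stood at 9.81 in LS174T-siVec and 11.04 in LS174T-siCDX1, a rise of 1.23 or 2.34-fold, at rank 65 of 16896 measured genes. The level in LS174T-siCDX1 lay between those of the HCT116 arrays, at 10.79 and 11.10. In all, 1 of 24 measured HOX genes rose and 0 fell, where 0.598% of all measured genes rose and 1.25% fell. The HOX median was 0.18 and that of all genes -0.01, and 19 of the 24 lay above 0, against 48.8% of all genes.

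All 3 probe sets of HOXB7 read higher in LS174T-siCDX1, by 1.23, 1.08 and 0.68. Each of them carries the mark of a probe set shared between transcripts, so the gene is unread when such probe sets are left out, and its mean over probe sets, at 0.99, lay just under 2-fold. HOXB6 followed at 6.33 in LS174T-siVec and 7.17 in LS174T-siCDX1, a difference of 0.84, with 0.56 in its second probe set. HOXB3 was at 6.77 and 7.49, a difference of 0.72, while its second probe set differed by 0.04. HOXB2 differed by 0.42 and HOXB13 by 0.35. HOXB5 differed by 0.31 in the probe set that reads it and by 0.76 in its other, from 7.90 to 8.66.

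HOXB9, with the highest rise in the HCT116 pair, differed by 0.03 in both of its probe sets in the LS174T pair. HOXB8 and HOXD8 were under the floor on both LS174T arrays, at 5.38 and 5.24 and at 5.57 and 5.68, and have no difference there. HOXC genes ranged from -0.04 to 0.35 and HOXD genes from -0.09 to 0.29. HOXC10 and HOXC13, both of the high-numbered end, were the highest of the HOXC genes, at 0.35 and 0.34.

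**Figure D2:**
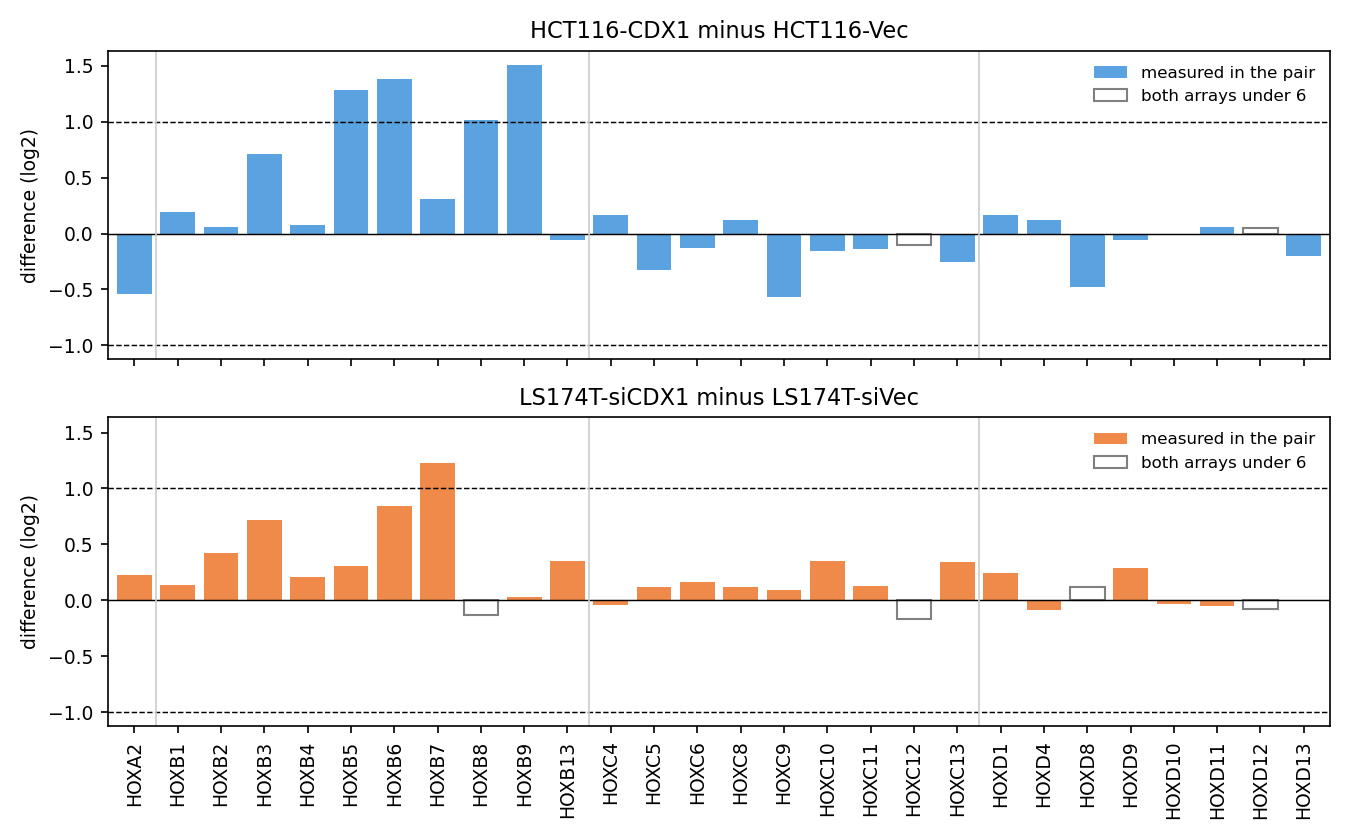
Differences (log2, vertical axis) of the 28 HOX genes within the HCT116 pair (upper panel) and the LS174T pair (lower panel), with dashed lines at 2-fold and open bars where both arrays lay under 6. In the upper panel HOXB5, HOXB6, HOXB8 and HOXB9 pass the upper line, in the lower panel HOXB7 does, and no bar reaches the lower line.

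The titles set higher CDX1 against lower CDX1 in opposite array order in the lines. HOXB6 was 1.38 higher with CDX1 by title in HCT116 and 0.84 lower with it in LS174T, and HOXB7 0.31 higher and 1.23 lower. A limma fit of all 4 arrays, with terms for label and line, called 0 of 26 HOX genes for the label after Benjamini-Hochberg adjustment over 17280 genes. Called genes were 0% of all genes in either direction, and at an unadjusted p under 0.05 there were 0 HOX genes and 518 genes in all. The largest estimate was 0.74 (SE 0.39) for HOXB9, with a limma adjusted p of 0.999. The fit has 1 residual degree of freedom, so a missing call does not show that the label had no effect. That residual is the difference of modified against vector arrays, so the SE grows where both pairs move alike.

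Of 24 HOX genes measured in both pairs, 10 were above 0 in both, on the modified array against its own vector array, and 1 was below 0 in both. Another 4 were above 0 in HCT116 only and 9 in LS174T only. Of all measured genes 49% lay above 0 in the HCT116 pair and 48.8% in the LS174T pair. The share of all genes above 0 in both was not counted, so these counts are not read as a trait of HOX genes. HOXB3 and HOXB6 were the 2 with a difference of at least 0.5 in both pairs, a limit set after the values were seen and not counted over all genes. A limma fit with modified against vector arrays as the term, chosen after the values were seen, gave 0.72 (SE 0.13) for HOXB3 and 1.11 (SE 0.19) for HOXB6. The residual of this fit is the difference by CDX1 label, so its SE is no replicate error. The value of HOXB3 rests on 1 of its 2 probe sets, since the other read 7.58 on both HCT116 arrays and 7.48 and 7.52 on the LS174T arrays. The fit called 0 HOX genes and 0 of 17280 genes, with a limma adjusted p of 0.888 for both. At an unadjusted p under 0.05 there were 4 HOX genes, HOXB3, HOXB5, HOXB6 and HOXB7, and 690 genes in all, or 3.99%.

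**Figure D3:**
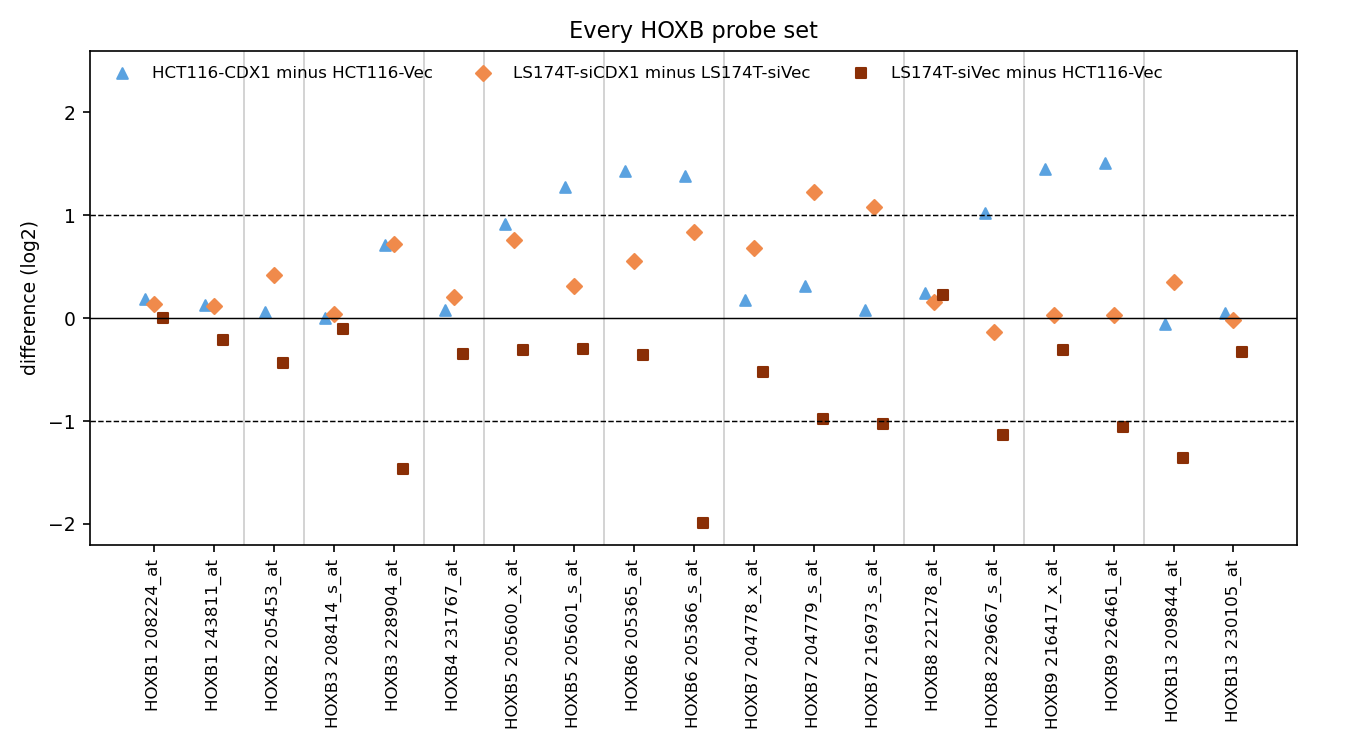
Differences (log2, vertical axis) in each of the 19 HOXB probe sets (horizontal axis, in cluster order) for both pairs and between the vector arrays, with dashed lines at 2-fold. Both probe sets of HOXB6 and of HOXB9 pass 2-fold in the HCT116 pair, and between the vector arrays the probe sets of HOXB3, HOXB6, HOXB9 and HOXB13 differ in size and those of HOXB8 in sign.

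Between the lines, part of the HOX genes were lower in LS174T. In LS174T-siVec 8 of 26 measured HOX genes were at least 2-fold lower than in HCT116-Vec and 0 were higher, where 7.33% of 17043 measured genes were lower and 6.03% higher. They were HOXB3, HOXB6, HOXB8, HOXB9 and HOXB13 of the HOXB cluster, HOXC6 and HOXC9 of HOXC, and HOXD8. The HOX median was -0.47 and that of all genes 0.01, and 24 of the 26 lay below 0, where 50.8% of all genes lay above 0. This comparison shares HCT116-Vec with the HCT116 pair and LS174T-siVec with the LS174T pair, so its values are not independent of theirs.

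HOXC6 showed the largest gap. It stood at 9.19 and 9.06 on the HCT116 arrays and at 6.76 and 6.93 on the LS174T arrays, and the lines did not overlap. LS174T-siVec was 5.36-fold lower than HCT116-Vec, rank 316 from the lowest of 17043 genes. HOXB6 read 8.32 and 9.70 in HCT116 against 6.33 and 7.17 in LS174T, 3.98-fold lower in the vector arrays. HOXD8 read 7.10 and 6.62 against 5.57 and 5.68, a fold of 2.88 as read and of at least 2.14 against the floor of 6.

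HOXC9, a gene of the thoracic level in the embryo, read 7.86 and 7.29 in HCT116 and 6.44 and 6.53 in LS174T. HOXB13, of the tail end and known from prostate and hindgut, read 8.75 and 8.69 against 7.39 and 7.73. HOXB3 read 8.25 and 8.96 against 6.77 and 7.49. In each of these genes both HCT116 arrays were above both LS174T arrays. HOXB8 was at 6.51 in HCT116-Vec and at 5.38 in LS174T-siVec, below the floor, so the fold of 2.20 as read is 1.43 against the floor.

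Members outside the 8 came near the threshold in 3 cases. HOXB7 differed by -0.98 between the vector arrays, and by -0.06 between LS174T-siCDX1 and the array labelled HCT116-CDX1. HOXC13 differed by -0.92 and HOXC10 by -0.79. Some members stayed together on all 4 arrays: HOXC8 read 7.45 to 7.58, HOXC11 7.91 to 8.05 and HOXB1 7.13 to 7.32. Of the 26 measured members, 10 had a range under 0.5 over the arrays, against 52.1% of all measured genes.

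By place along the clusters the counts were as follows. Of 8 measured genes of paralogue groups 5 to 8, 4 were at least 2-fold lower in LS174T-siVec, with a median of -1.06. Of 8 genes of groups 1 to 4, 1 was lower, HOXB3, with a median of -0.27, and of 10 genes of groups 9 to 13, 3 were, with a median of -0.48. Of all measured genes 7.33% were at least 2-fold lower in LS174T-siVec. The 4 of groups 5 to 8 were HOXB6, HOXB8, HOXC6 and HOXD8. HOXB8 and HOXD8 lay under the floor in LS174T-siVec, and HOXB8 differed by 1.43-fold against the floor. The second probe set of HOXB6 differed by -0.36. The counts by place describe the members and were not tested.

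The limma fit over all 4 arrays called 6 of 26 HOX genes for the cell line, all lower in LS174T, where 8.73% of 17280 genes were called lower and 7.37% higher. The estimate for HOXC6 was -2.28 (SE 0.15, limma adjusted p = 0.0029), and those for HOXB13 and HOXD8 were -1.16 (SE 0.16, adjusted p = 0.017) and -1.23 (SE 0.17, adjusted p = 0.016). HOXB8 was at -1.71 as read (SE 0.26, adjusted p = 0.020) and HOXC9 at -1.09 (SE 0.18, adjusted p = 0.026). Both LS174T readings of HOXB8 and of HOXD8 lay under the floor, so these estimates are no measured sizes. The 2 genes passed the floor only through the HCT116 arrays, where they are higher. Their calls among the 6 thus give no support for a direction. HOXB9, at -1.81 (SE 0.39), had a limma adjusted p of 0.049. It was not called under 4 of 7 alternatives (no floor, a floor of 7, means over probe sets, no shared probe sets), HOXB8 was not under the last 2, and HOXC6, read from a shared probe set, was not read under the last. HOXB3, at -1.47 (SE 0.37), and HOXB6, at -2.26 (SE 0.55), were not called, with limma adjusted p values of 0.068 and 0.063. Here each line is represented by 2 arrays with different constructs, and no group has a replicate. The fit has 1 residual degree of freedom, to which limma adds 3.447 prior degrees of freedom estimated over all genes. The SE and p-values thus rest in large part on a variance borrowed from other genes. With terms for label and line, the residual left is the difference of modified against vector arrays over both lines. A gene that moves alike in both pairs, such as HOXB3 (0.72) or HOXB6 (1.11), thus gets a larger SE. That SE is no replicate error. No label says that the 2 arrays of a line came from separate cultures.

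In 16 of the 26 measured HOX genes both LS174T arrays lay below both HCT116 arrays, where 30.3% of all measured genes did. In 2, HOXA2 and HOXD11, both lay above, where 32.4% of all genes did. HOXA2 was at 6.18 and 5.64 in HCT116 and at 6.26 and 6.49 in LS174T. HOXD11 read 6.81 to 6.96 on all 4 arrays, so its order rests on small differences. The remaining 8 overlapped between the lines. Among the 16, HOXB2 read 7.70 and 7.76 in HCT116 against 7.26 and 7.67 in LS174T, and HOXC4 7.84 and 8.01 against 7.79 and 7.75. Their order rests on small differences too. HOXB8 and HOXD8, also of the 16, were under the floor on both LS174T arrays. They count as measured only through HCT116, so their place among the 16 is no support.

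**Figure D4:**
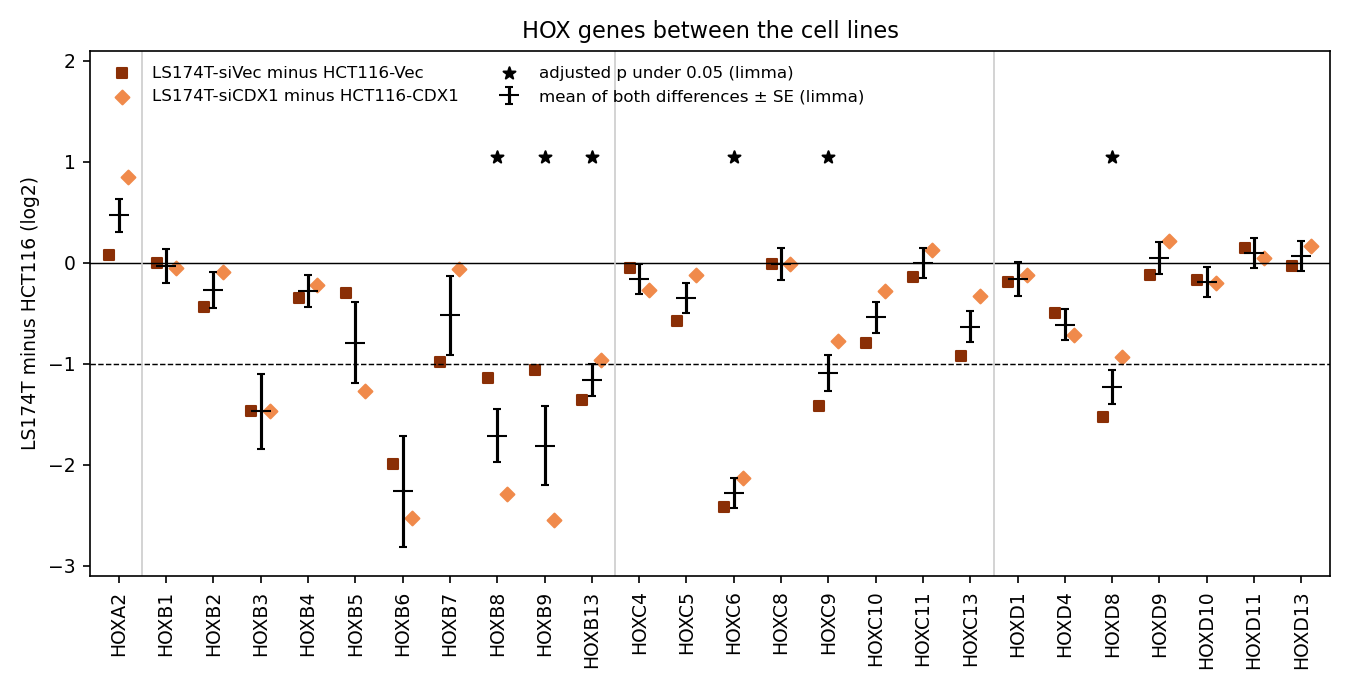
LS174T minus HCT116 (log2, vertical axis) for the 26 measured HOX genes, as the difference of the vector arrays (squares), of the modified arrays (diamonds) and as their mean with its SE from limma (black), with stars at adjusted p under 0.05. The 6 starred genes, HOXB8, HOXB9, HOXB13, HOXC6, HOXC9 and HOXD8, all lie below 0.

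Probe sets of 1 gene differed in the size of the line gap. In the second probe set of HOXB6 the vector arrays differed by -0.36, in that of HOXB9 by -0.31, in that of HOXB13 by -0.33 and in that of HOXB3 by -0.10. The dim second probe set of HOXB8 had the opposite sign, at 0.23. As the mean over probe sets 4 HOX genes were at least 2-fold lower in LS174T-siVec, HOXB6, HOXC6, HOXC9 and HOXD8, and without shared probe sets 5 were. HOXC6, HOXC9 and HOXD8 had 1 probe set each. In RefSeq the HOXC4, HOXC5 and HOXC6 genes overlap, and so do HOXB3 with HOXB4, so readings of these genes may not be fully separate.

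HOX cofactors were next. Of 9 TALE genes listed, 8 were read and 7 were measured in each pair, of which 0 rose or fell. MEIS2, a MEIS cofactor, stood at 9.62 and 9.59 in HCT116 and at 5.28 and 5.57 in LS174T, a gap between the vector arrays of -4.34, or at least 12.3-fold against the floor. PBX3 was higher in LS174T, at 7.97 and 8.11 against 9.45 and 9.61, and MEIS1 read 5.46 and 5.59 against 6.51 and 6.62. Both HCT116 readings of MEIS1 lay under the floor, against which its vector arrays differed by 1.43-fold. The limma line estimate for MEIS2, as read, was -4.18 (SE 0.16, adjusted p = 0.0010). MEIS2 passed the floor only through the HCT116 arrays, where it is higher, so this call is no separate support. PBX3, 2.79-fold higher in LS174T-siVec than in HCT116-Vec, had a limma adjusted p of 0.0095.

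Noncoding RNAs of the HOX clusters gave 11 genes read of 18 listed, 8 of them measured. Of 7 measured in the HCT116 pair and 8 in the LS174T pair, 0 rose or fell. Between the vector arrays 1 was higher in LS174T-siVec, HOXA11-AS, whose promoter window is printed above. It read 5.49 and 5.29 in HCT116 and 7.84 and 8.05 in LS174T, at least 3.57-fold against the floor. Its limma line estimate, as read, was 2.55 (SE 0.15, adjusted p = 0.0022). HOXA11-AS passed the floor only through the LS174T arrays, so this call is no separate support. HOTTIP, a noncoding RNA beyond the HOXA13 end of the cluster, differed by 0.51 in the probe set that reads it and by 2.53 and 1.90 in its 2 others. HOXB-AS3, antisense in the HOXB5 and HOXB6 region, was at 6.64 and 6.88 in HCT116 and at 6.28 and 6.29 in LS174T. In the HCT116 pair, where HOXB5 and HOXB6 rose, it differed by 0.24 in this probe set. Its other probe sets there differed by -0.20 to 0.47, so their signs disagree.

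**Figure D5:**
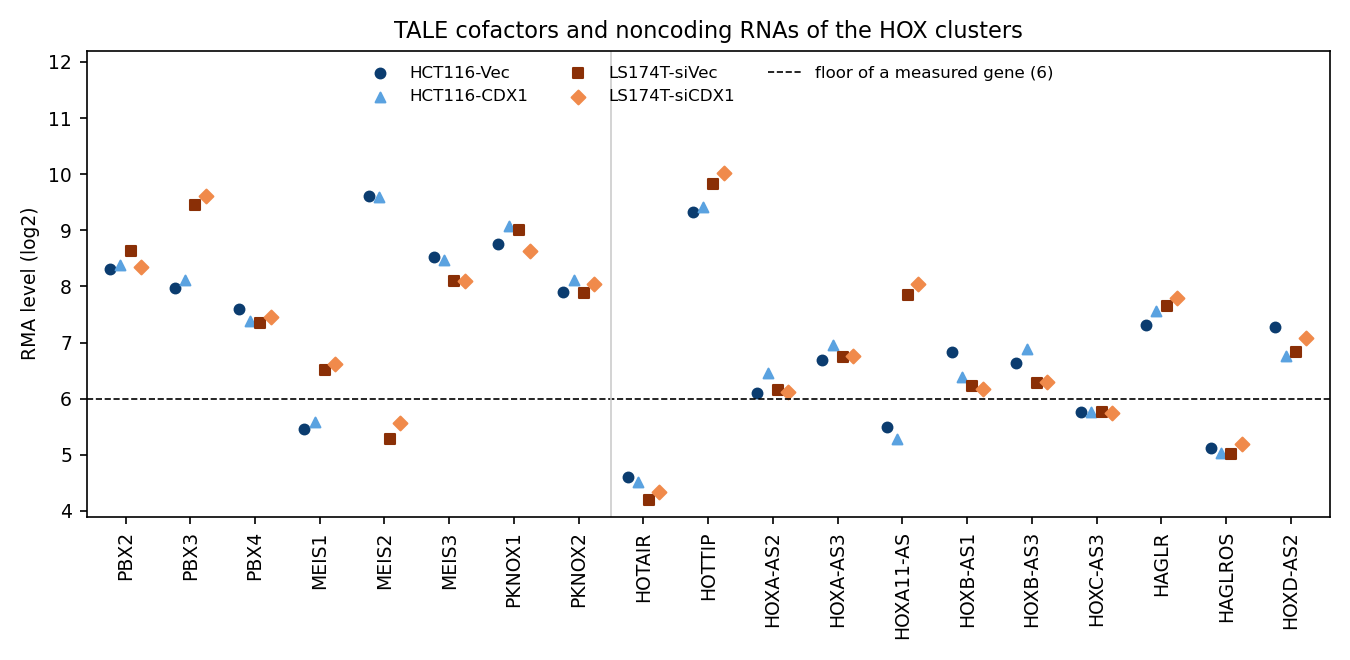
RMA levels (log2, vertical axis) of 8 TALE cofactor genes and 11 noncoding RNAs of the HOX clusters on the 4 arrays, with a dashed line at the floor of 6. MEIS2 is high on both HCT116 arrays and under the floor on both LS174T arrays, and HOXA11-AS is under the floor on both HCT116 arrays and above it on both LS174T arrays.

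The ParaHox and neighbouring homeobox list held 8 read genes of 9. CDX1 fell in the LS174T pair, 0 rose in either pair, and CDX1 and CDX2 were at least 2-fold higher in LS174T-siVec than in HCT116-Vec. CDX2 read 7.52 and 7.62 in HCT116 and 9.49 and 9.14 in LS174T. Of 25 listed chromatin regulators of HOX clusters, 21 were read and 0 rose or fell in either pair. Between the vector arrays 2 were higher in LS174T-siVec, the methyltransferase genes KMT2C by 1.10 and DOT1L by 1.17. The 3 that were lower were the Polycomb gene RING1 at -1.09, KMT2D at -1.34 and the H3K27 demethylase gene KDM6A at -1.02. The probe sets of KMT2D disagreed: the 5 others differed by -0.26 to 1.15, so its direction rests on the brightest 1. The other probe sets of DOT1L differed by 0.40 and 0.54, under 2-fold. Those of KDM6A differed by -1.45 to -0.05 and those of KMT2C by -0.15 to 1.26. The other probe set of RING1 differed by -1.18. Among the regulators not called, JARID2 differed by -0.43 in the probe set that reads it and by -1.35 and 0.11 in its others.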

How the data were processed

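Total RNA was extracted and biotin-labelled cRNA was hybridised to 1 Affymetrix array per sample, 4 in all, grouped by sample title. The deposited values are log2 levels that the authors made with RMA, per the submitters' processing notes. Not given in the sources used here are its version and which arrays were normalised together. The platform annotation gave gene names, where 41097 of 54675 name 1 gene, 1801 several and 11777 none listed there. Symbols were checked through the gene identifier against RefSeq, GRCh38.p14, with 41043 matches and 0 changes. No coordinates of array features were used.

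Differences between 2 arrays have no test. All 4 arrays were fitted with limma 3.58.1 in R 4.3.3 (lmFit, eBayes) for 17280 genes with the brightest array at 6 or more. Benjamini-Hochberg adjustment ran over all of them. These p-values rest on 1 residual degree of freedom and on a variance borrowed from all genes, and measure no spread between replicates of a group. Counts and scalings were computed with pandas 2.3.3, numpy 2.4.6 and statsmodels 0.14.6 in Python 3.11.15, and figures drawn with matplotlib 3.10.9. Both procedures were tested on simulated data. The members and gene lists were chosen with earlier results of these data known. All HOX members could be named, with CDX1, CDX2 and KRT20 and, from each list, up to 4 genes per comparison that differed at least 2-fold. EPCAM, LYZ, CD3E, TEK and COL1A1 of the markers, and HOTTIP, HOXB-AS3 and JARID2, were named after their values were seen. Alternatives were no floor, a floor of 7, levels under 6 set to 6, quantile normalization, equal medians, removal of a lowess curve (span 0.3), means over probe sets, no shared probe sets, thresholds of 1.5-fold and 3-fold and, for limma, an intensity trend, robust moderation and no cell line term.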

Additional observations from a re-analysis of the deposited data

Results flagged for a closer look

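In 4 HOXB genes the difference between higher and lower CDX1 by title had opposite signs in the lines and reached 2-fold in one of them. HOXB5 was at 1.28 in HCT116 and -0.31 in LS174T, where its other probe set differed more. HOXB6 was at 1.38 and -0.84, HOXB7 at 0.31 and -1.23, and HOXB9 at 1.51 and -0.03. The value of HOXB9 in LS174T is close to 0, so its sign there says little. With 1 array per group the difference between the lines was not tested.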

How the results depend on the processing

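Counts of HOX genes that fell in the HCT116 pair, fell in the LS174T pair or were higher in LS174T-siVec than in HCT116-Vec were 0 under each of the 10 alternatives, and the scalings moved the median of all genes by at most 0.027. The 4 rises in the HCT116 pair became 2 without shared probe sets and 0 at 3-fold, and HOXB8 slipped just under 2-fold with each of the 3 other scalings. The single rise in the LS174T pair was 0 with means over probe sets, 0 without shared probe sets, 3 at 1.5-fold (HOXB3, HOXB6 and HOXB7) and 0 at 3-fold. The 8 genes lower in LS174T-siVec became 4 with means over probe sets, 5 without shared probe sets and 2 at 3-fold, and HOXB8 was at 0.23, with its sign reversed, without shared probe sets. For the cell line limma called 6 HOX genes, 10 after quantile normalization and 10 with an intensity trend. Without shared probe sets it called 3, where 20 HOX genes were tested. HOXC9 and HOXB13 were called under each of the 7 alternatives. HOXD8 was too, but both its LS174T readings lay under the floor of 6, so its calls are no support. For the CDX1 label limma called 0 under each alternative, with 0 HOX genes at an unadjusted p under 0.05, except for 4 with modified against vector arrays, an alternative chosen after seeing the data. The cell line term of the limma fit pairs each modified array with the vector array of its line. With 1 array per group and no replicate numbers in the labels, no pairing of replicates was possible. Leaving out an array leaves no residual degree of freedom.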
